A study of Mus musculus with 8 samples.

Results

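The OVOL, ZEB, SNAIL, TWIST and PRRX1 transcription factors regulate the balance between epithelial and mesenchymal states, and their genes were followed here in bipotential mouse embryonic liver (BMEL) cells that received GRHL2. The group was defined by symbol: Ovol1, Ovol2, Zeb1, Zeb2, Snai1, Snai2, Twist1, Twist2 and Prrx1. All 9 have a row among the 18671 genes of the deposited table. BMEL cells are a line from embryonic mouse liver that can differentiate into hepatocytes or cholangiocytes. RNA-seq was done on 8 samples harvested 48 h after transfection, 4 with the pcDNA3 vector (pcDNA) and 4 with a plasmid for Flag-tagged GRHL2 (pIGrhl2). The GRHL2 plasmid carries the human cDNA behind the EF1A promoter together with a green fluorescent protein that the vector lacks. All cells shared 1 line and 1 culture medium with serum, insulin, EGF and IGFII. RNA came from whole transfected cultures, in which fewer cells expressing a gene and less RNA per cell cannot be told apart.

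Epithelial-mesenchymal transition (EMT) is the loss of cell junctions and apicobasal polarity by epithelial cells as they acquire a mesenchymal shape. ZEB1, ZEB2, SNAI1 and SNAI2 are zinc finger repressors that bind E-boxes of epithelial genes such as Cdh1, TWIST1 and TWIST2 are basic helix-loop-helix factors, and PRRX1 is a paired-type homeodomain factor of mesenchymal tissue. OVOL1 and OVOL2 are zinc finger repressors that act on the other side of this balance and restrain Zeb1 in epithelia, and GRHL2 and ZEB1 are known to repress each other's genes. In the liver, SNAIL and ZEB factors are studied mostly in fibrosis and in liver cancer.

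OVOL and SNAIL proteins start with related residues, the SNAG sequence, through which SNAIL factors recruit corepressors. The first 30 bases of the coding sequences (mouse GENCODE M21 transcripts, GRCm38, 5′ to 3′) are shown because the 4 genes that share this start did not move together in the cells. Capitals mark the 14 positions at which all 4 have the same base.
Snai1: ATGCCgcgctccTTccTGGTcAgGAagccg
Snai2: ATGCCgcgctccTTccTGGTcAaGAaacat
Ovol1: ATGCCtcgcgcgTTccTGGTgAaGAagcca
Ovol2: ATGCCcaaagtcTTttTGGTgAaGAggagg
Over these positions Snai1 and Snai2 shared 26 bases, Snai1 and Ovol1 shared 24, and Ovol1 and Ovol2 shared 18. Ovol1, Ovol2, Snai1 and Snai2 have coding sequences of 801, 822, 792 and 807 bases.

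Deposited values are on a log2 scale and are adjusted for transcript length, and they derive from the regularized logarithm (rlog), which pulls the samples of a gene with few reads together. Differences of low genes are thus understated, and read depth per sample is unknown. Grhl2 had a log2 difference of 1.71 (95% interval 1.21 to 2.20) with an adjusted p of 0.00100 (limma), but mouse and plasmid-derived reads were not separated. Of all genes, 16.4% passed an adjusted p under 0.05 in limma, 10.5% as higher and 5.91% as lower in pIGrhl2. With each sample set to the same upper quartile, 75.9% of the called genes were higher instead of 63.9%, and the median difference of all genes was 0.029 instead of 0.0066. The 12 markers of hepatoblasts and biliary cells were all in the table, with keratins 8, 18 and 19 at 15.31, 14.76 and 15.05 in pcDNA cells and Hnf4a at 11.16, and 2 were called higher and 1 lower. Markers of other cell types covered a wide range in pcDNA cells, the 4 of blood from Ptprc at 0.90 to Cd68 at 6.08, the 5 of endothelium from Tie1 at -0.55 to Pecam1 at 3.33, and the 4 of stellate cells and fibroblasts from Pdgfrb at -0.23 to Col1a1 at 5.22. Cd68 was thus above Snai2 and Col1a1 above Ovol1, and the part of such cells in the levels was not tested. limma called none of the 5 endothelial and 4 blood markers, of which 4 and 1 had an unadjusted p under 0.05. With the replicate block Kdr, Tek and Cd68 were called higher (adjusted p = 0.0411, 0.0234 and 0.0205, limma).

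Among the 9 genes, limma called 5 (55.6%, against 16.4% of all genes). The 9 genes were chosen with earlier results of these data known. The share called also differed with level before division by length. It was 24.8% of genes near Ovol2 and Prrx1, 23.8% near Ovol1 and Snai2, and 17.2% near Zeb1 and Zeb2. Ovol1, Ovol2 and Prrx1 were higher in pIGrhl2 cells, and Zeb1 and Snai2 were lower. These 5 genes also had no overlap between the groups, as did 23.8% of all genes, 14.3% with pIGrhl2 above and 9.47% with it below. Zeb2, Snai1, Twist1 and Twist2 overlapped. With the replicate number as a block, Zeb2 was called as well, against a background of 32.1% of all genes called under that model. With 4 samples against 4, the exact two-sided permutation test cannot go below p = 0.0286.

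**Figure D1:**
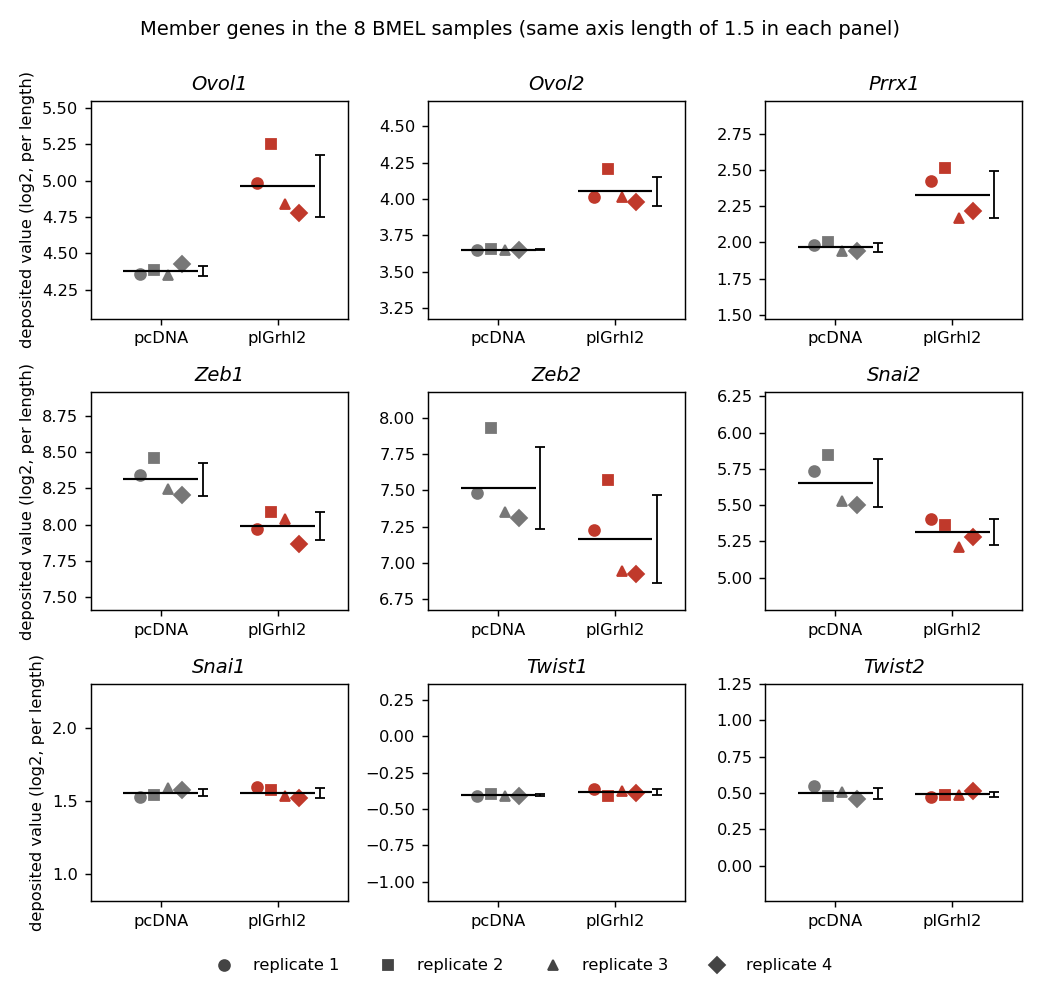
Deposited values (log2, per transcript length) of the 9 genes in each sample, with 1 symbol per replicate number. Horizontal lines are group means, error bars are SD (n = 4), and every panel spans 1.5 log2 units. The 4 pIGrhl2 samples of Ovol1, Ovol2 and Prrx1 lie above all pcDNA samples, those of Zeb1 and Snai2 lie below, and both groups of Zeb2 spread widely with replicate 2 on top.

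Ovol1 (ENSMUSG00000024922, GRCm38 chromosome 19, 5549136 to 5560646, minus strand) encodes a repressor of epidermal and epithelial progenitors. Its values were 4.36, 4.38, 4.35 and 4.43 in pcDNA replicates 1 to 4 and 4.99, 5.25, 4.84 and 4.78 in the pIGrhl2 replicates. The pIGrhl2 samples were spread over a wider range than the controls, and replicate 2 was the highest. On the rlog-based scale the 0.59 difference (standard error 0.088) is a rise of 50.0%, with a 95% interval of 0.39 to 0.78 and an adjusted p of 0.00210 (limma). Only 1.02% of all genes had a larger absolute difference. Exons of Gm31166 overlap those of Ovol1 by 690 bases and exons of AC126029.1 by 76 on the opposite strand, and counting ignored strand. The difference was 0.75 within replicates 1 and 2 and 0.42 within replicates 3 and 4.

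Ovol2 (ENSMUSG00000037279, chromosome 2, 144305175 to 144332146, minus strand) is the paralog best known for restraining EMT in mammary and corneal epithelium. Its 4 pcDNA samples were nearly equal, at 3.65, 3.66, 3.65 and 3.65, and its pIGrhl2 samples were at 4.01, 4.20, 4.01 and 3.98. The pIGrhl2 samples stood apart by at least 0.33. The log2 difference was 0.40 (standard error 0.047, 95% interval 0.30 to 0.51) with an adjusted p of 0.000549 (limma). The SD of the controls was only 0.0038, against a median within-group SD of 0.055 for genes of similar level, and the rlog narrows such spreads. Exons of 1700108N11Rik overlap those of Ovol2 by 244 bases on the opposite strand. Ovol1 exceeded Ovol2 by 0.73 ± 0.037 (SD, n = 4) in pcDNA samples and by 0.91 ± 0.12 (SD, n = 4) in pIGrhl2 samples on the per-length scale. Ovol3, the third family member, is not one of the 9 genes and was at 0.76 in pIGrhl2 and 0.75 in pcDNA cells, with an adjusted p of 0.574 (limma).

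Promoter windows from 250 bases before to 50 bases after the annotated start (RefSeq, GRCm38.p6) were matched for 6 of the 9 genes, in 9 windows. Zeb2 has 4 of these windows, which partly overlap. No window was searched for Ovol1, Zeb1 and Snai2, which limma called. Those of Ovol2 and Prrx1 are printed because both genes rose, and that of Snai1 because it holds an E-box, in capitals. The Ovol2 window lies at a RefSeq start inside the GENCODE gene.
Ovol2 (chr2:144331313-144331612, minus strand): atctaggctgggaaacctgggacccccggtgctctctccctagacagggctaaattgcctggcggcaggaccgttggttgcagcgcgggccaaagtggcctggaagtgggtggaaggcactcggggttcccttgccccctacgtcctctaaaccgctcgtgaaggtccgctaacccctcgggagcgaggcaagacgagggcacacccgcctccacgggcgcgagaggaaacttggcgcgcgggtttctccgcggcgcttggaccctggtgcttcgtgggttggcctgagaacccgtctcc
Prrx1 (chr1:163313601-163313900, minus strand): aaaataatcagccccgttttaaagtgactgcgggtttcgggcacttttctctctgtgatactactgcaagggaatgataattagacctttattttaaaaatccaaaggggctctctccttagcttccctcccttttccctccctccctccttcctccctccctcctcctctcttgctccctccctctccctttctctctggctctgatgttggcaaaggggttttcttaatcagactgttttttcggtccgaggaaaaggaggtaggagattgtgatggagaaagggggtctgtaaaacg
Snai1 (chr2:167537945-167538244, plus strand): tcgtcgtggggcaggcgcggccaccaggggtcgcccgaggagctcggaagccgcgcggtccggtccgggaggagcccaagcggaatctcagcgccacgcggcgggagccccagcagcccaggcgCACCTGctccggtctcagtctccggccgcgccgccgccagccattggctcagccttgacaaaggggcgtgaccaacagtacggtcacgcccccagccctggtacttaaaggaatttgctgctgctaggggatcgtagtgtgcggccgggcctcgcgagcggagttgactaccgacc
The windows were searched on both strands for the grainyhead motif AACCGGTT, its looser form AACNNGTT and the E-box CACCTG. Every AACCGGTT is also an AACNNGTT. None of the 9 windows held a grainyhead motif in these letters, which occur in 0.147% (AACCGGTT) and 4.19% (AACNNGTT) of 32544 promoter windows of this length. With 9 windows at such rates, finding no match does not set these genes apart from other promoters. The single E-box match was that of Snai1, at position -126 from the start, and 20.3% of all windows hold CACCTG. SNAI1 is known to bind E-boxes of its own promoter.

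Zeb1 (ENSMUSG00000024238, chromosome 18, 5591860 to 5775467, plus strand) had the highest level of the 9 genes. Its values were 8.34, 8.46, 8.24 and 8.20 in pcDNA replicates 1 to 4 and 7.97, 8.09, 8.04 and 7.87 in pIGrhl2 replicates. The lowest control stood 0.12 above the highest pIGrhl2 sample. Zeb1 fell by 0.32 on the log2 scale (standard error 0.069, 95% interval -0.47 to -0.17), and the adjusted p was 0.0125 (limma). In linear terms it fell by 19.9%. Exons of Gm10125 overlap those of Zeb1 by 198 bases on the opposite strand, and Gm10125 was at 1.26 in pcDNA cells. The effect of this overlap on the Zeb1 values was not tested.

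Zeb2 (ENSMUSG00000026872, chromosome 2, 44983632 to 45117395, minus strand), the other ZEB factor, had values of 7.48, 7.93, 7.35 and 7.31 in pcDNA replicates 1 to 4 and of 7.23, 7.57, 6.94 and 6.92 in pIGrhl2 replicates. The groups overlapped, since replicate 2 was the highest in each, and the exact two-sided permutation p was 0.171. Its log2 difference was -0.35 (standard error 0.17, 95% interval -0.72 to 0.021) and its adjusted p 0.184 (limma), and without pcDNA replicate 2 the difference was -0.21. Within the same-numbered pairs the differences were -0.25, -0.36, -0.41 and -0.38, all in 1 direction. With the replicate number as a block, the standard error was 0.041 and the adjusted p 0.000428 (limma). Zeb2 exons overlap those of the antisense gene Zeb2os by 1428 bases, and reads of the pair cannot be told apart without strand. Zeb1 exceeded Zeb2 by 0.79 ± 0.18 (SD, n = 4) in pcDNA samples and by 0.83 ± 0.25 (SD, n = 4) in pIGrhl2 samples.

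Snai2 (ENSMUSG00000022676, chromosome 16, 14705852 to 14709385, plus strand) encodes Slug, a factor of neural crest cells and of basal epithelial cells. Its values were 5.73, 5.85, 5.53 and 5.50 in pcDNA replicates 1 to 4 and 5.41, 5.36, 5.21 and 5.28 in pIGrhl2 replicates. The groups were 0.096 apart. Snai2 fell by 0.34 on the log2 scale (standard error 0.079, 95% interval -0.51 to -0.16) with an adjusted p of 0.0175 (limma). Without pcDNA replicate 1 the difference was -0.31 and the adjusted p 0.0564 (limma), whereas blocking on replicate number gave an adjusted p of 0.000964 (limma).

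Snai1 (ENSMUSG00000042821, chromosome 2, 167538195 to 167542814, plus strand), the founding SNAIL gene of EMT, was far lower than Snai2. It was between 1.53 and 1.59 in pcDNA samples and between 1.52 and 1.59 in pIGrhl2 samples. The 95% interval of its log2 difference ran from -0.050 to 0.048, with an adjusted p of 0.985 (limma). Replicates 1 and 2 were higher in pIGrhl2, by 0.068 and 0.030, and replicates 3 and 4 lower, by 0.050 and 0.051. Snai2 exceeded Snai1 by 4.10 ± 0.19 (SD, n = 4) in pcDNA samples and by 3.76 ± 0.060 (SD, n = 4) in pIGrhl2 samples.

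Twist1 and Twist2 were the lowest of the 9 genes. Adding the log2 of the mean transcript length in kb turns a deposited value back into an approximate rlog level, which is the log2 of the normalized read number. Twist1 (ENSMUSG00000035799, chromosome 12, 33957671 to 33959829) then lay at 0.31, where 10 reads spread over 8 samples give 0.32, and 0.684% of genes were lower. Its values ran from -0.41 to -0.40 in pcDNA and from -0.41 to -0.36 in pIGrhl2 samples, with a log2 difference of 0.023 (95% interval -0.0024 to 0.048, adjusted p = 0.201, limma). With an equal upper quartile the difference was 0.046 and the adjusted p 0.0164 (limma), and with an equal sum they were 0.047 and 0.0642. Twist2 (ENSMUSG00000007805, chromosome 1, 91801461 to 91848028), at a level of 1.44 with 11.4% of genes lower, had a difference of -0.0071 (95% interval -0.050 to 0.036, adjusted p = 0.842, limma), and 2 of its 4 pairs were higher. Its exons overlap those of Gm29100 by 2157 bases on the opposite strand. Of 1335 genes with a level under 1, as for Twist1, limma called 4.34%, and of 3295 with a level from 1 to 3, as for Twist2, it called 15.2%.

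Prrx1 (ENSMUSG00000026586, chromosome 1, 163245119 to 163313710, minus strand) was the only mesenchymal regulator of the group that limma called higher. It was at 1.98, 2.005, 1.94 and 1.94 in pcDNA replicates 1 to 4 and at 2.42, 2.51, 2.17 and 2.22 in pIGrhl2 replicates. All pIGrhl2 samples were above the controls, replicates 1 and 2 more than 3 and 4. The log2 difference was 0.36 (standard error 0.067, 95% interval 0.21 to 0.51), or 28.6%, and the adjusted p was 0.00595 (limma). Its level was low, near that of Ovol2 before division by length (rlog levels of 4.16 and 4.13). Of 4 markers of stellate cells and fibroblasts in the table, limma called Pdgfrb higher and, with the replicate block, also Col1a1 (adjusted p = 0.0281), and the summed level of the 4 ran from 5.66 to 5.91 in pcDNA and from 5.82 to 6.04 in pIGrhl2 samples. Lrat, Dcn, Lum and Col3a1 were not analysed here, and the part of such cells in the Prrx1 result was not tested. The paralog Prrx2 was at 3.40 in both groups, with an adjusted p of 0.945 (limma).

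**Figure D2:**
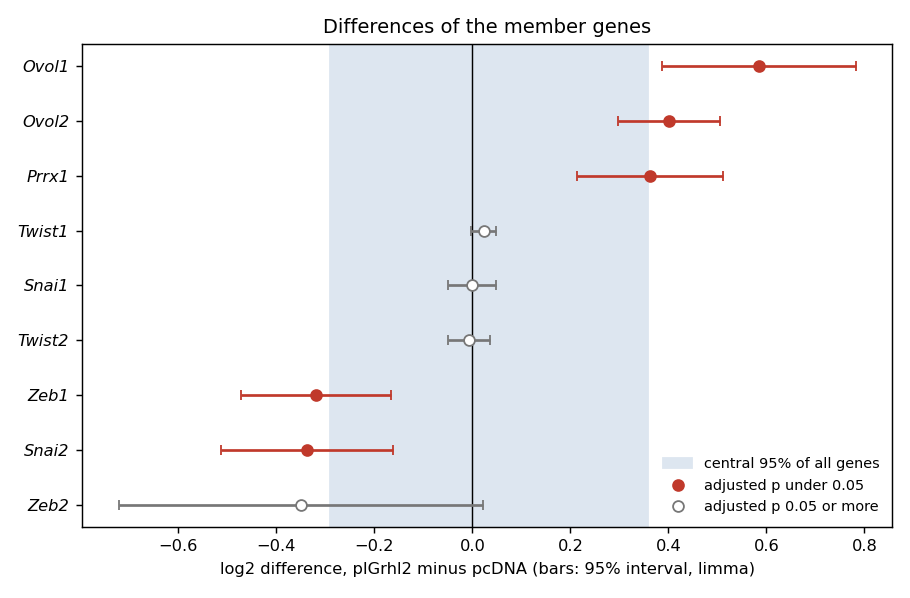
Log2 difference (pIGrhl2 minus pcDNA) of the 9 genes with its 95% interval from limma. Filled points passed an adjusted p under 0.05, and the shaded band holds the central 95% of all genes (-0.29 to 0.36). Ovol1, Ovol2, Prrx1, Zeb1, Snai2 and the uncalled Zeb2 lie outside the band, and Snai1, Twist1 and Twist2 lie near 0.

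Per length, the order of levels in pcDNA cells was Zeb1 (8.31), Zeb2 (7.52), Snai2 (5.65), Ovol1 (4.38), Ovol2 (3.65), Prrx1 (1.97), Snai1 (1.56), Twist2 (0.50) and Twist1 (-0.41). The order was the same in pIGrhl2 cells. Neighbours in this order had separate sample ranges, with the exception of Snai2 and Ovol1 in pIGrhl2 cells. Snai2 was 1.27 above Ovol1 in pcDNA cells and 0.35 above it in pIGrhl2 cells, where their ranges overlapped. Zeb1 exceeded Ovol1 by 3.93 ± 0.13 (SD, n = 4) and 3.03 ± 0.16 (SD, n = 4) in the 2 groups, so the ZEB genes stayed the highest of the group. The authors divided by the mean length of all annotated transcripts, and GENCODE M21 lists 29 for Zeb2 and 12 for Zeb1 but 1 for Snai1, Snai2 and Twist1, which limits such comparisons between genes.

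Same-numbered samples deviated together, and so did replicates 1 with 2 and 3 with 4, so the pairs are not fully separate from these sets. Grhl2 differed by 1.61, 2.38, 1.23 and 1.61 in pairs 1 to 4. Ovol1 differed by 0.63, 0.87, 0.49 and 0.35, Ovol2 by 0.36, 0.55, 0.36 and 0.33, and Prrx1 by 0.44, 0.51, 0.23 and 0.28. Pair 2, with the largest Grhl2 difference, also had the largest difference of each of these 3 genes. For Zeb1 the pair differences were -0.37, -0.37, -0.20 and -0.34, and for Snai2 they were -0.33, -0.49, -0.32 and -0.22. Snai2 was thus also furthest down in pair 2, whereas Zeb2 differed most in pair 3. In pair 2 the pcDNA sample was the highest Snai2 control (5.85), and the pIGrhl2 sample (5.36) was not the lowest of its group. All 4 pairs were higher for 27.3% of all genes and lower for 21.3%.

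**Figure D3:**
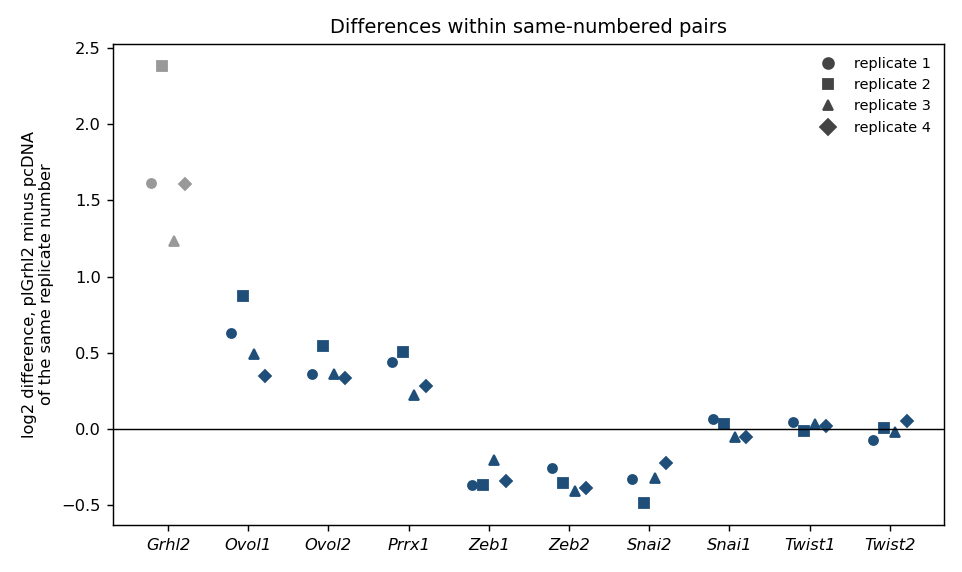
Log2 difference between pIGrhl2 and pcDNA samples of the same replicate number, for Grhl2 (grey) and the 9 genes (blue), with 1 symbol per pair. All 4 pairs are above 0 for Ovol1, Ovol2 and Prrx1 and below 0 for Zeb1, Zeb2 and Snai2, and the pairs of Snai1, Twist1 and Twist2 fall on both sides.

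The genes around these factors were read in the same fit. Of 18 other regulators of EMT, 17 were in the table (Foxc2 was not analysed here), and 3 were called, all higher. Hmga2, a chromatin protein of embryonic cells, rose by 0.21 (adjusted p = 0.00833, limma), and Gsc, a homeobox gene of the gastrula organizer, by 0.086 at a level near 1.5 (adjusted p = 0.0156, limma). With replicates 3 and 4 averaged Gsc was not called (adjusted p = 0.0741, limma). Sox9, a biliary factor, differed by 0.35 (adjusted p = 0.0805, limma), and Id3, an inhibitor of helix-loop-helix factors such as TWIST, by -0.29 (adjusted p = 0.0896, limma). The 3 of 17 are a share near the 16.4% of all genes. With the replicate block 8 of the 17 were called higher and 1 lower, against 18.2% and 13.9% of all genes, and Sox9 and Id3 were among them (adjusted p = 0.000510 and 0.000878, limma). The median of the list was 0.070, against 0.0066 for all genes.

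Of 16 genes for corepressors and E-protein partners of these repressors, 1 was called (against 16.4% of all genes), and 2 with the replicate block (against 32.1%). Sin3a was called higher, with a log2 difference of 0.17 (adjusted p = 0.0317, limma), and this call was lost in 7 of the 8 fits with a sample left out (adjusted p from 0.0551 to 0.0853, limma), all but that without pIGrhl2 replicate 2. Prmt5, an arginine methyltransferase, differed by -0.19 and Kdm1a, the demethylase that binds the SNAG sequence, by -0.14, with adjusted p-values of 0.0892 and 0.0978 without the replicate block and 0.00273 and 0.0554 with it (limma). The median of this list was -0.028. Of 14 genes that control the turnover of SNAIL proteins, 2 were called higher and 1 lower (against 10.5% and 5.91% of all genes), with a median of -0.029, and 2 and 2 with the replicate block (against 18.2% and 13.9%). Prkd1, a kinase that phosphorylates SNAI1, was between 3.65 and 3.73 in pcDNA and between 4.27 and 4.45 in pIGrhl2 samples, a log2 difference of 0.63 (adjusted p = 3.16e-05, limma). Usp27x, a deubiquitinase of SNAI1, rose by 0.38 (adjusted p = 0.00953, limma). Fbxw11, a ubiquitin ligase subunit, differed by -0.23 (adjusted p = 0.0402, limma), and its adjusted p was between 0.0552 and 0.104 (limma) without pcDNA replicate 1 or 2 or pIGrhl2 replicate 2, 3 or 4. Lats2 and Pak1 were not called, at -0.25 and 0.11, but with the replicate block Lats2 was (adjusted p = 0.000982, limma).

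Of 13 genes of the TGF-beta pathway, which induces SNAIL and ZEB genes, limma called none, against 16.4% of all genes, and 5 had an unadjusted p under 0.05. With the replicate block, 4 were called higher and 2 lower, against 18.2% and 13.9% of all genes. Acvr1b, a type I receptor, differed by 0.24 and the ligand gene Tgfb1 by 0.22, with adjusted p-values of 0.262 and 0.177 without the block and 0.0125 and 0.00234 with it (limma). Without pIGrhl2 replicate 4 Acvr1b differed by 0.14, and it differed by 0.11 within replicates 1 and 2 and by 0.37 within replicates 3 and 4. The list's median was -0.044. The 7 genes of miR-200 and miR-205, the microRNAs that target ZEB mRNAs, were not analysed here.

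Of 36 epithelial genes counted among the targets of ZEB or SNAIL repressors, 34 were in the table, and 21 were called higher and 1 lower (against 10.5% and 5.91% of all genes), with a median of 0.31. Grhl2 itself is among them, and without it 20 of 33 were called higher with a median of 0.29. The list was chosen with earlier results of these data known, which limits the comparison with all genes. Epcam, an epithelial adhesion molecule, was between 6.39 and 6.51 in pcDNA and between 8.13 and 8.31 in pIGrhl2 samples. Its log2 difference was 1.75 (adjusted p = 4.59e-07, limma). The tight junction gene Cldn4 rose by 1.71, the protease inhibitor Spint1 by 1.18 and the protease Prss8 by 0.62, with adjusted p-values of 3.24e-06, 2.90e-05 and 9.79e-05 (limma). Krt19 and F11r were not called, at 0.16 and 0.10, but were with the replicate block (adjusted p = 0.0109 and 0.0301, limma). Cdh1 (E-cadherin), the classical target of SNAI1, rose by 0.29 (adjusted p = 0.0199, limma), and Dsp (desmoplakin) fell by 0.28 (adjusted p = 0.0253, limma). Cdh1 and Dsp are outside the rule for named genes and were chosen after their values were seen. GRHL2 is known to activate several of these genes directly, and their part under the repressors was not tested.

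Of 25 mesenchymal genes, 20 were in the table, 5 were called higher and 1 lower (against 10.5% and 5.91% of all genes), and the median was 0.0082. Vim (vimentin), the intermediate filament of mesenchymal cells, was between 15.23 and 15.39 in pcDNA and between 14.88 and 14.99 in pIGrhl2 samples. It fell by 0.37 on the log2 scale (adjusted p = 0.000614, limma). Fn1 (fibronectin) went the other way, from a mean of 10.81 in pcDNA to 11.06 in pIGrhl2 cells. This rise of 0.24 was called (adjusted p = 0.0367, limma), also under the replicate block (adjusted p = 0.00481, limma). Fn1 is named outside the rule, after its values were seen, and its fits with a sample left out are not reported here. Pdgfrb and Tnc were called higher, by 0.11 and 0.057, at levels under 0 (adjusted p = 0.00886 and 0.0147, limma), and without the mean-variance trend Tnc was not called (adjusted p = 0.113, limma). Fbn1 (fibrillin 1) differed by 0.35 (adjusted p = 0.0295, limma), and its adjusted p was between 0.0544 and 0.0738 (limma) without pIGrhl2 replicate 1 or pcDNA replicate 1, 3 or 4. Cdh2 (N-cadherin) and Thy1 were not called, at -0.16 each, and without pcDNA replicate 1 Thy1 was at 0.0037. With the replicate block 6 genes of this list were called higher and 4 lower (against 18.2% and 13.9% of all genes), Cdh2 among the latter (adjusted p = 0.00709, limma). With 1 sample left out, the difference of Cdh2 ranged from -0.24 to -0.075, the latter without pcDNA replicate 2, and it was -0.11 without pcDNA replicate 1 and -0.10 without pIGrhl2 replicate 3 or 4.

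**Figure D4:**
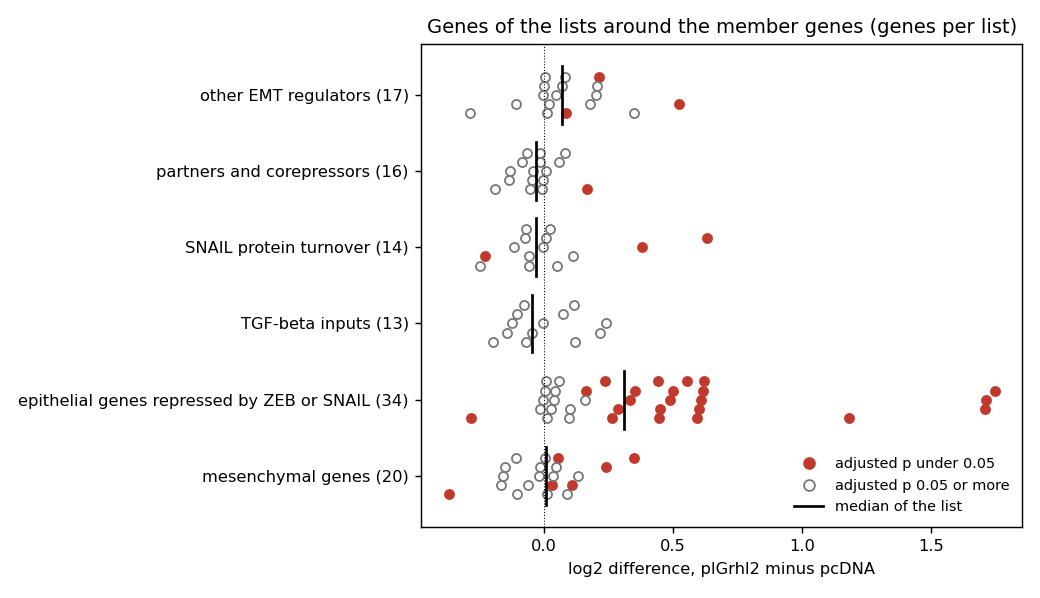
Log2 difference (pIGrhl2 minus pcDNA) of each gene of the 6 lists with genes in the table, with the number of genes in brackets. Filled points passed an adjusted p under 0.05 in limma, and vertical bars are medians. Most called genes belong to the list of epithelial genes, which is the largest and has a median of 0.31. The medians of the other 5 lists lie between -0.044 and 0.070. All lists were chosen with earlier results of these data known.

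The genes closest in pattern to the called factors were found by the root mean square difference of gene-centred values over the 8 samples. Nearest to Ovol1 were Dpy19l2 (0.025), Prph (0.035) and Tas1r1 (0.045), and nearest to Ovol2 were Ecel1 (0.0087), Bmp3 (0.019) and Foxl2os (0.023). For Prrx1 they were Mtus2 (0.030), Crb1 (0.031) and Upk2 (0.032). These are small against the root mean square of Ovol1 (0.32), Ovol2 (0.21) and Prrx1 (0.21) about their own means. The nearest to Zeb1 were Gosr1 (0.040), Dis3l (0.041) and Ice2 (0.042), and the nearest to Snai2 were Odf2 (0.023), Srsf11 (0.025) and Tlk2 (0.031). Zeb2, called with the replicate block, was followed by Zbtb10 (0.055), Rrp12 (0.067) and Mafk (0.079).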

How the data were processed

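RNA-seq of 8 BMEL samples was analysed, grouped and numbered by the sample labels. The authors aligned reads to mm10 (Hisat2), counted them over exons by gene (HTSeq, union mode, without strand, alignment quality of at least 10), removed genes under 10 reads in total and divided DESeq2 rlog values by the mean length of a gene's Ensembl transcripts (GRCm39). The authors' (submitters') processing notes name HISAT2 2.2.1, HTSeq 0.9.1 and DESeq2 1.40.2. That these methods, which open with public data, cover the BMEL samples was assumed. The deposited table is named for FPKM, but its values run from -2.85 to 18.01 and 4.81% are below 0, so they were used as log2 values. Depth per sample is therefore unknown and no counting interval is given. With the log2 of GENCODE M21 mean transcript length in kb added (18428 genes), the 1st percentile was 0.33, near the log2 of 10 reads over 8 samples (0.32).

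All genes were fitted with limma 3.58.1 in R 4.3.3 (2 groups, mean-variance trend, Benjamini-Hochberg, two-sided). The fit was tested on simulated data. Exact permutation tests over samples used scipy 1.17.1. Where a p is given, it measures the spread between samples, which the study calls independent biological replicates. With the replicate block, it measures the spread of the differences between same-numbered samples. Deviations of same-numbered samples from their group means correlated across genes (r from 0.474 to 0.645 in the 4 pairs). Differently numbered samples correlated about as strongly within replicates 1 and 2 (0.344 and 0.436) and within 3 and 4 (0.500 and 0.602) and negatively between these sets. Every same-numbered pair was over 0.1, but so were the differently numbered samples within a set, which does not tell number from set. The replicate numbers from the labels were used as pairs in an alternative fit. The main calls come from the fit without the block.

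The alternatives scaled samples to an equal upper quartile or to an equal sum, added the replicate block, or used no trend, a mean value of at least 0, a linear scale with a pseudocount of 1, each sample left out, and values within replicates 1 and 2 and within 3 and 4. Averaging replicates 3 and 4 was added after seeing the data. The members and lists (other EMT regulators, partners and corepressors, SNAIL turnover, TGF-beta inputs, epithelial targets, mesenchymal genes, miR-200 genes, markers) were chosen with earlier results of these data known. Named genes were the 9 factors, Grhl2, up to 4 called genes with the lowest adjusted p and up to 2 uncalled ones with the largest difference per pathway list, and the 3 genes nearest in pattern to each called factor. One called gene of the list of other EMT regulators is not reported here. Named outside this rule are family members, markers and genes marked so in the text. Positions are those of GENCODE M21 (GRCm38), matched by symbol.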

Additional observations from a re-analysis of the deposited data

Results flagged for a closer look

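Of 74 groups of 4 samples (the 9 factors and other named genes, in each group), 8 held 1 sample far from the other 3 by Dixon's 95% critical value, where chance gives about 1 in 20 groups. Among the factors, Ovol2 was highest in pIGrhl2 replicate 2, at 4.20 against 3.98 to 4.01 in the other samples, and without that sample its log2 difference was 0.35. Twist1 was highest in pcDNA replicate 2, at -0.396 against values near -0.41, a gap of little size at the bottom of the table. Replicate 2 also stood apart for Id3 (8.75, lowest) and Epcam (8.31, highest) in pIGrhl2 samples and for Kdm1a (10.69, highest) and Krt19 (14.86, lowest) in pcDNA samples. Prkd1 was lowest in pcDNA replicate 3, at 3.65, and Thy1 was highest in pcDNA replicate 1, at 3.36 against 2.72 to 2.73.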

How the results depend on the processing

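Of 134 alternative values of the 9 factors with a test, 121 kept direction and side of the threshold, and of 18 within-replicate values without one, 16 kept direction (not Snai1 and Twist2). Ovol1 was 0.75 within replicates 1 and 2 and 0.42 within replicates 3 and 4. The replicate block changed the call of Zeb2 alone among the factors (-0.35, adjusted p = 0.000428, limma). Snai2 ranged from -0.39 to -0.27 with a sample left out and was not called without pcDNA replicate 1. The uncalled Snai1 was 0.022 with an equal upper quartile, 0.023 with an equal sum, 0.016 with replicates 3 and 4 averaged, 0.049 within replicates 1 and 2, -0.051 within 3 and 4, and -0.014 to 0.011 with a sample left out. Twist2 was 0.015, 0.017 and -0.019 to 0.0098 under the first, second and last of these and 0.018 within replicates 3 and 4. Twist1 was 0.046 with an equal upper quartile and has no value at a mean of at least 0. With a sample left out, Zeb2 ranged from -0.49 to -0.21 and Thy1 from -0.21 to 0.0037, Krt19 was 0.10 without pcDNA replicate 2 and Pak1 0.070 without pIGrhl2 replicate 4. Over all genes, 3064 were called higher with an equal upper quartile and 3396 with the replicate block (main 1957), and 2589 lower with the block, 521 with replicates 3 and 4 averaged and 690 to 1036 with a sample left out (main 1104). Calls among other EMT regulators numbered 5 with either scaling, 9 with the block and 3 to 5 with a sample left out. Among partners they were 2 with the block, 0 with replicates 3 and 4 averaged and 0 to 2 with a sample left out. Among TGF-beta inputs they were 2 with an equal upper quartile, 1 with an equal sum, 6 with the block, 1 without the trend and 0 to 1 with a sample left out. Among mesenchymal genes they were 10 with the block, 3 at a mean value of at least 0, 3 with replicates 3 and 4 averaged and 3 to 5 with a sample left out. Causes were not tested, other than that the filter and the left-out samples reduce what is tested. For 28 other named genes, 378 of 418 tested values kept direction and side, and 55 of 56 within-replicate values kept direction, all but Thy1 within replicates 3 and 4 (0.0089). Without the trend Tnc (adjusted p = 0.113, limma) and Fbn1 (0.0577) lost their calls. With replicates 3 and 4 averaged, Gsc (0.0741), Sin3a (0.112), Fbxw11 (0.0968) and Fbn1 (0.0688) lost theirs. Read depth is unknown.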
